A study of Saccharomyces cerevisiae with 12 samples.

Results

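The genes examined are 9 transcription activators of yeast genes for respiration and for making sugar from ethanol: CAT8 (YMR280C), SIP4 (YJL089W), ADR1 (YDR216W), RDS2 (YPL133C), HAP1 (YLR256W), HAP2 (YGL237C), HAP3 (YBL021C), HAP4 (YKL109W) and HAP5 (YOR358W). They were chosen by gene symbol, each was read by 1 probe set of the array, and all 9 were among the 5449 genes of Saccharomyces cerevisiae tested. Arrays read the transcripts of budding yeast of the CEN.PK background in chemostats, continuous cultures whose growth the feed sets, here limited by ethanol at a dilution rate of 0.1 per h. The culture was sampled before glucose was added (0 min) and again 20 min after the pulse. The series asks how far the transcriptional response to glucose depends on uptake of the sugar.

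The 4 groups were the null strain at 20 min, the null strain at 0 min, the reference strain at 20 min and the reference strain at 0 min, with 3 replicate arrays each. The null strain (KOY.VW101P) lacks the known hexose transporter genes, and the reference strain (KOY.PK2-1C83P) is isogenic and keeps them. All 4 groups share the background and the ethanol-fed chemostat, and both 20 min groups had received glucose. Each strain name stands for a single constructed strain, so a difference between strains covers all that differs between those constructs. The null labels were checked with HXT1, HXT2, HXT3, HXT4, HXT5 and HXT7, genes of glucose transporters. On the 6 null arrays none of the 6 was more than 0.14 log2 units above that array's minimum as deposited, and on the 6 reference arrays each was at least 3.32 above it.

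Yeast turns to ethanol when glucose is gone, and the switch rests on activators that glucose represses. The kinase Snf1 is active without glucose and acts on several of them. Cat8, Sip4 and Rds2 are zinc-cluster proteins that act on genes of gluconeogenesis and the glyoxylate cycle. The CAT8 gene is itself repressed through Mig1, a repressor active in glucose, and Cat8 activates the gene of Sip4. Adr1 is a zinc-finger activator of genes for ethanol oxidation, fatty acid oxidation and glycerol use. Hap2, Hap3 and Hap5 together bind CCAAT sequences of respiratory genes, Hap4 joins them and carries the activation domain, and Hap1 activates respiratory and sterol genes in response to heme.

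Values are log2 intensities after quantile normalization, so 1 unit is a doubling of signal, and the lowest value after normalization was 2.06. The arrays numbered 2 stand against the other arrays by their time labels. On each of the 4 arrays numbered 2, 8 of the 9 activators lay closer to the mean of replicates 1 and 3 of the other labelled time than to that of its own time. The exception was HAP3 on both reference arrays and ADR1 on both null arrays. The mismatch was not confined to these genes. Over all genes, the reference arrays numbered 2 (0 min, then 20 min) correlated at 0.728 and 0.721 with the labelled time. With the opposite time they correlated at 0.992 and 0.994. For the null arrays these correlations were 0.928 and 0.942 with the labelled time, against 0.984 and 0.992 with the opposite time. On the reference array labelled 0 min replicate 2, the activators lay on average 1.99 log2 units from the mean of their own labelled time and 0.348 from that of the other. On the null array labelled 0 min replicate 2 these distances were 0.572 and 0.284. No array was moved to another group. Results are given first for the 8 arrays of replicates 1 and 3, then with all 12 arrays as labelled, and a rise or fall over time is as the 8 arrays are labelled. Where 2 values are given for a group, they are replicate 1 and replicate 3.

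**Figure D1:**
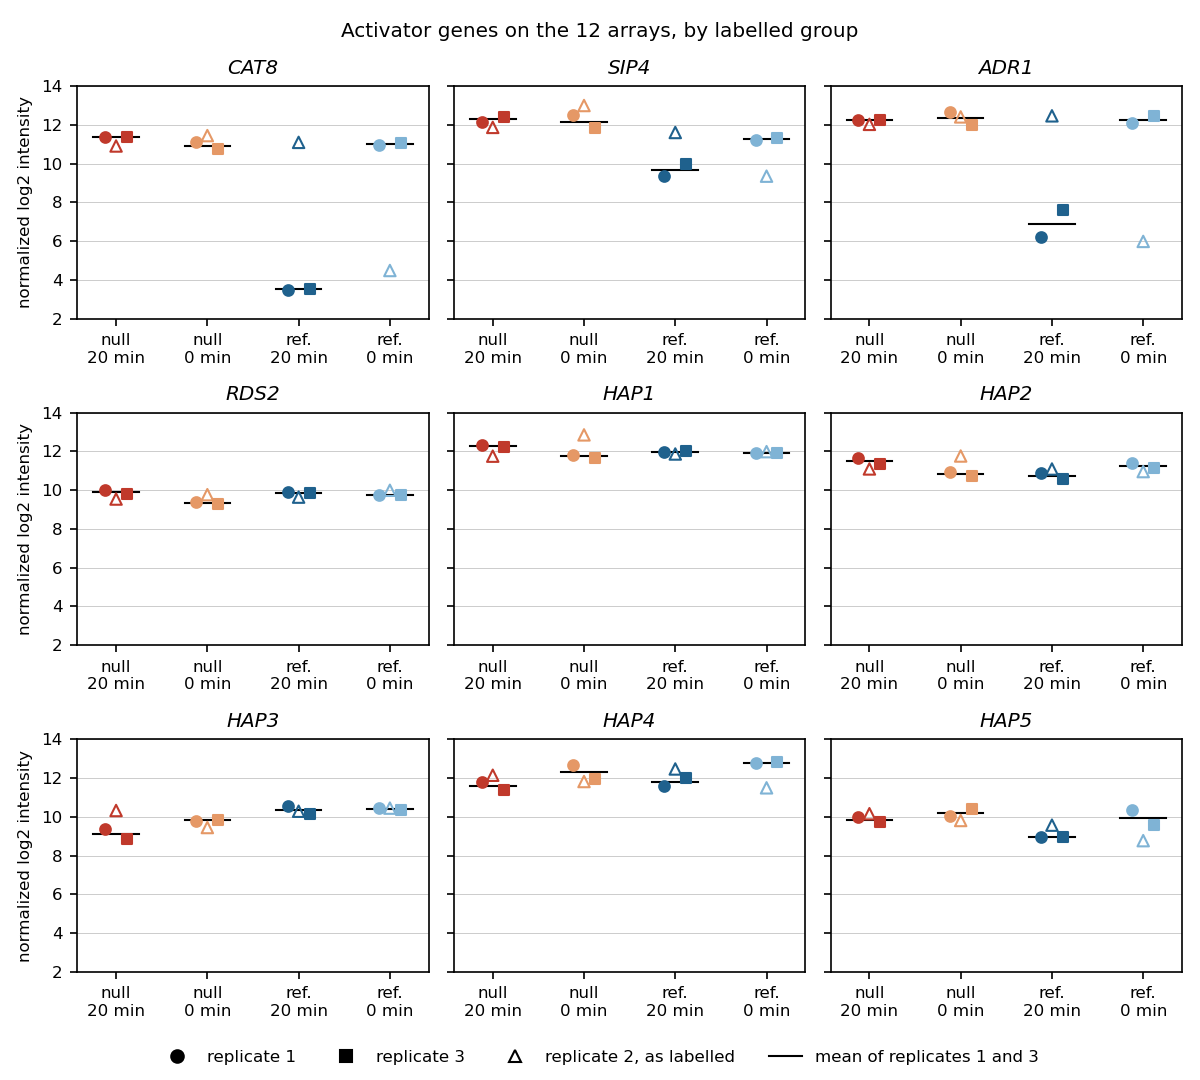
Normalized log2 intensity of the 9 activator genes on the 12 arrays, 1 panel per gene, with the groups null 20 min, null 0 min, reference 20 min and reference 0 min from left to right. Filled points are replicates 1 and 3, lines are their means, and open triangles are replicate 2 as labelled. CAT8 lies at 3.49 and 3.55 on the filled reference points at 20 min and above 10 on the 6 other filled points.

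After the glucose pulse CAT8, ADR1 and SIP4 fell in the reference strain, and none of these 3 genes passed the test of a change in the null strain after quantile normalization. The arrays read whole cultures, so fewer cells with a transcript and less of it per cell cannot be told apart. Of the 9 activators, 3 rose, 0 fell and 6 did not pass in the null strain, beside 12.9% of the tested genes called higher and 14.7% lower. In the reference strain 0 rose, 6 fell and 3 did not pass, against 39.3% called higher and 33% lower among all genes. The shares of all genes depended on the scaling, with 4.59% called higher against 21.7% called lower in the null strain, and 26% against 45.7% in the reference strain, for the values as deposited. In those values the activators also split otherwise, with 0 higher and 1 lower (HAP3) in the null strain and 0 higher and 7 lower in the reference strain. The median change of the 9 activators was 0.12 in the null strain and -1.001 in the reference strain, beside 0.038 and 0.13 over all genes. As deposited, the medians over all genes were -0.13 and -0.38, so small changes are to be read against these shifts. Calls are limma adjusted p under 0.05, two-sided, adjusted over all 5449 genes.

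CAT8 encodes the activator at the head of the gluconeogenic group. CAT8 had 11.35 and 11.39 at 20 min against 11.11 and 10.74 at 0 min in the null strain, and 3.49 and 3.55 at 20 min against 10.95 and 11.06 at 0 min in the reference strain. The reference arrays at 20 min stand far below the other 6 arrays, which lie between 10.74 and 11.39. CAT8 changed by 0.44 in the null strain (SE 0.14, limma adjusted p = 0.0664), which did not pass, with a 95% interval of 0.097 to 0.79. It passed as higher with centred arrays (0.56, adjusted p = 0.0399) and without null 0 min replicate 1 (0.63, adjusted p = 0.0263). It fell by 7.48 in the reference strain (SE 0.14, limma adjusted p = 9.57e-06). This was place 9 by size among the 2428 genes with a negative change. As deposited, CAT8 lay 0.83 log2 units above the lowest value of reference 20 min replicate 3, and the fall was 8.21 in those values, so its size is not well determined. The null response exceeded the reference response by 7.93 (SE 0.20, limma adjusted p = 3.92e-05), where 32.4% of all genes had a difference called in that direction and 33.9% in the other (39.1% and 29.3% as deposited).

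SIP4, the gene that Cat8 activates, followed the same direction with a smaller change. SIP4 had 12.15 and 12.40 at 20 min against 12.51 and 11.81 at 0 min in the null strain, and 9.37 and 9.98 at 20 min against 11.21 and 11.33 at 0 min in the reference strain. The reference arrays at 20 min are again the lowest, and the groups of the null strain overlap. In the null strain SIP4 was at 0.12 (95% interval -0.64 to 0.88, limma adjusted p = 0.816), and in the reference strain it fell by 1.59 (SE 0.30, limma adjusted p = 0.00494). The responses differed by 1.71 (SE 0.43, limma adjusted p = 0.0159). This difference no longer passed without reference 0 min replicate 3 or without null 20 min replicate 3, with a highest adjusted p of 0.0534 and values of 1.36 to 2.06 over the 8 fits that left out 1 array.

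RDS2, whose protein acts on promoters of gluconeogenic genes, stayed within a narrow range. RDS2 had 10.02 and 9.81 at 20 min against 9.40 and 9.29 at 0 min in the null strain, and 9.91 and 9.84 at 20 min against 9.74 and 9.77 at 0 min in the reference strain. Its highest and lowest values on the 8 arrays lay 0.73 log2 units apart. It rose by 0.57 in the null strain (SE 0.10, limma adjusted p = 0.016), a value that turned to -0.0084 as deposited and was 0.24 with arrays centred on their medians (adjusted p = 0.982 and 0.288). In the reference strain it was at 0.12 (limma adjusted p = 0.331), against -0.72 as deposited (adjusted p = 0.0117) and -0.22 with centred arrays (adjusted p = 0.238). The direction of RDS2 over time therefore depended on the scaling in both strains. The difference between its responses, 0.45 (SE 0.15, limma adjusted p = 0.0405), passed as deposited (0.71, adjusted p = 0.0492) but not with centred arrays (0.46, adjusted p = 0.106), and it passed in 1 of 8 fits that left out 1 array, the one without null 20 min replicate 3. Over those fits it was 0.34 to 0.55 with adjusted p up to 0.115.

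ADR1, the activator of alcohol dehydrogenase and fatty acid oxidation genes, fell in the reference strain. ADR1 had 12.23 and 12.23 at 20 min against 12.68 and 11.99 at 0 min in the null strain, and 6.19 and 7.62 at 20 min against 12.08 and 12.46 at 0 min in the reference strain. Both reference arrays at 20 min lie more than 4 log2 units below every other array of the 8, and they differ from each other by more than replicates 1 and 3 of any other group do. ADR1 was at -0.10 in the null strain (95% interval -1.36 to 1.15, limma adjusted p = 0.916), and this small value was 0.14 with centred arrays. In the reference strain ADR1 fell by 5.36 (SE 0.50, limma adjusted p = 0.000308), place 87 by size among genes with a negative change. The fall was 7.05 as deposited and 6.55 with centred arrays, so the scaling moved its size but not its call. The responses of the strains differed by 5.26 (SE 0.71, limma adjusted p = 0.00153).

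In the CCAAT-binding complex, 3 of the 4 subunit genes (HAP2, HAP4 and HAP5) fell in the reference strain. Falls were common there, at 33% of the tested genes and 45.7% as deposited. With centred arrays HAP5 still passed, and HAP2 and HAP4 did not. HAP2 also rose in the null strain, as did 12.9% of the tested genes (4.59% as deposited). HAP4, which encodes the activation subunit, was lower at 20 min on every array of replicates 1 and 3. HAP4 had 11.78 and 11.38 at 20 min against 12.67 and 11.96 at 0 min in the null strain, and 11.59 and 11.98 at 20 min against 12.75 and 12.82 at 0 min in the reference strain. The groups of both strains do not overlap, although null 0 min replicate 3 lies close to null 20 min replicate 1. The change was -0.73 in the null strain (95% interval -1.44 to -0.017, limma adjusted p = 0.116), which did not pass on the 8 arrays, and HAP4 fell by 1.001 in the reference strain (SE 0.28, limma adjusted p = 0.0219). With all 12 arrays weighted by their estimated quality the null value was -0.84 and passed (adjusted p = 0.0128). The difference between the responses was 0.27 with a 95% interval of -0.73 to 1.28 (limma adjusted p = 0.582), so the strains were not shown to differ for HAP4. The reference fall was 0.59 and did not pass with centred arrays (adjusted p = 0.0813). It was also lost without reference 0 min replicate 1 or 3 or reference 20 min replicate 1, with 0.81 to 1.19 and adjusted p up to 0.107.

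HAP2 and HAP5 encode subunits that bind DNA together with Hap3. HAP2 had 11.67 and 11.37 at 20 min against 10.96 and 10.71 at 0 min in the null strain, and 10.90 and 10.55 at 20 min against 11.37 and 11.16 at 0 min in the reference strain. The reference values at 20 min lie below those at 0 min, and in the null strain the order is the opposite. Times without overlap were common, at 65.6% of all genes in the null strain and 86.5% in the reference strain. HAP2 rose by 0.68 in the null strain (SE 0.19, limma adjusted p = 0.0467) and fell by 0.54 in the reference strain (SE 0.19, limma adjusted p = 0.042). Both calls were close to the threshold. The first did not pass as deposited (adjusted p = 0.124) or in any of the 8 fits that left out 1 array (0.53 to 0.83, adjusted p = 0.0574 to 0.174). The second did not pass with centred arrays (adjusted p = 0.0906) or without reference 0 min replicate 1 or 3, reference 20 min replicate 3 or null 0 min replicate 1 or 3, where the fits that left out 1 array gave -0.72 to -0.37 and adjusted p up to 0.19. The difference between the responses, 1.22 (SE 0.26, limma adjusted p = 0.00897), passed under both scalings and in all 8 of these fits.

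HAP5 fell in the reference strain. HAP5 had 9.96 and 9.74 at 20 min against 10.02 and 10.41 at 0 min in the null strain, and 8.93 and 8.94 at 20 min against 10.34 and 9.58 at 0 min in the reference strain. The reference arrays at 20 min are the lowest of the 8, and both groups of the null strain lie between 9.74 and 10.41. HAP5 was at -0.36 in the null strain (95% interval -1.06 to 0.34, limma adjusted p = 0.381) and fell by 1.02 in the reference strain (SE 0.28, limma adjusted p = 0.0194). That fall was 2.25 as deposited. It was lost without reference 0 min replicate 1 or reference 20 min replicate 1 or 3, with 0.64 to 1.40 and adjusted p up to 0.0743 over those fits. The responses differed by 0.66 (limma adjusted p = 0.193), which did not pass, while it passed as deposited at 1.48 (adjusted p = 0.00847) and with centred arrays at 1.23 (adjusted p = 0.0107).

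HAP3, the gene of the third DNA-binding subunit, did not pass over time in either strain. HAP3 had 9.36 and 8.84 at 20 min against 9.79 and 9.83 at 0 min in the null strain, and 10.54 and 10.14 at 20 min against 10.45 and 10.35 at 0 min in the reference strain. Among the 8 arrays the reference groups overlap, and every null array lies below every reference array. Over all genes the strains did not overlap on these arrays for 42.8% at 0 min and 88.9% at 20 min. On the arrays numbered 2, HAP3 had 10.32 in the null strain and 10.28 in the reference strain at 20 min, and 9.44 against 10.44 at 0 min. HAP3 was at -0.71 in the null strain (SE 0.21, limma adjusted p = 0.0594) and at -0.059 in the reference strain (limma adjusted p = 0.836). The null value passed as deposited (-1.24, adjusted p = 0.0245) with centred arrays (-0.99, adjusted p = 0.0216) and without null 20 min replicate 1. The difference between the responses was -0.66 (95% interval -1.41 to 0.10, limma adjusted p = 0.106) and did not pass, though it did without null 20 min replicate 1 (lowest adjusted p 0.0355).

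HAP1, the heme-responsive activator, varied least of the 9 genes on the 8 arrays, with a range of 0.67 log2 units. HAP1 had 12.33 and 12.22 at 20 min against 11.83 and 11.66 at 0 min in the null strain, and 11.98 and 11.998 at 20 min against 11.91 and 11.92 at 0 min in the reference strain. The 4 reference values lie within 0.087 log2 units of each other, and in the null strain both values at 20 min are above both at 0 min. In the null strain the times did not overlap for 65.6% of all genes. HAP1 rose by 0.53 in the null strain (SE 0.096, limma adjusted p = 0.0154), and as deposited the value was 0.47 and did not pass (adjusted p = 0.0622). In the reference strain it was at 0.077 (95% interval -0.16 to 0.32, limma adjusted p = 0.507), against -0.051 as deposited and 0.45 with centred arrays, where it passed (adjusted p = 0.0263). The responses differed by 0.45 (SE 0.14, limma adjusted p = 0.029). This did not pass as deposited (0.52, adjusted p = 0.0657) or with centred arrays (0.27, adjusted p = 0.291), and it passed in 2 of 8 fits that left out 1 array, those without null 0 min replicate 1 or null 20 min replicate 3. Null 0 min replicate 3 and null 20 min replicate 1 each ended the null call of HAP1 and of RDS2 when left out, with HAP1 at 0.44 to 0.62 and RDS2 at 0.47 to 0.68 over the 8 fits.

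**Figure D2:**
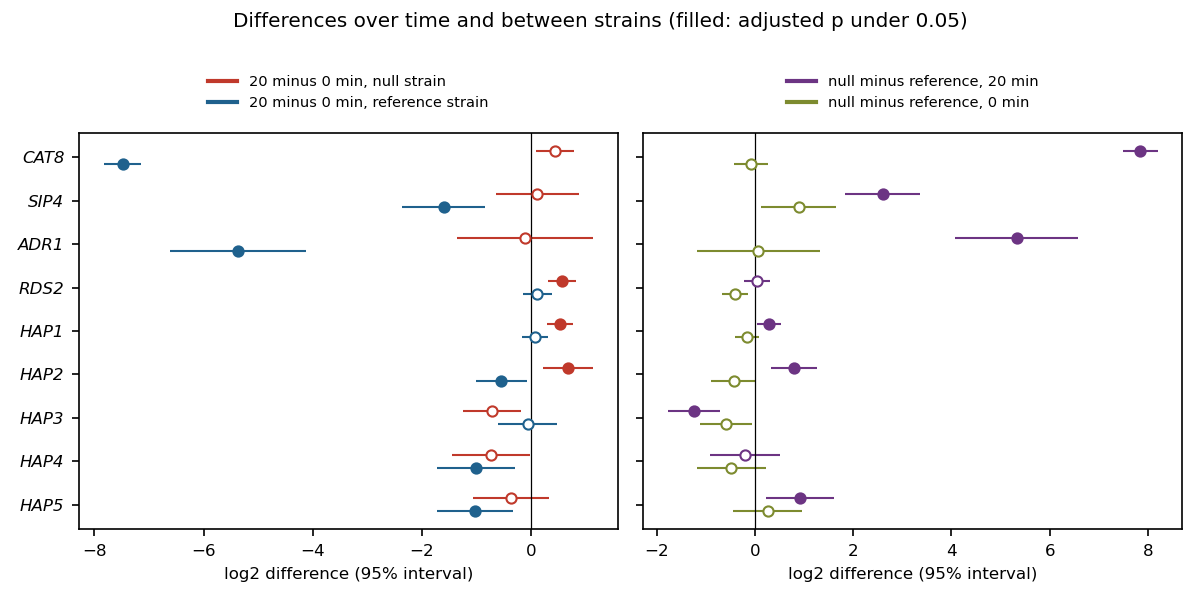
Log2 differences of the 9 activators with 95% intervals from limma on the 8 arrays of replicates 1 and 3, for 20 minus 0 min in each strain (left) and for the null minus the reference strain at each time (right). Filled points passed at adjusted p under 0.05. CAT8 is at 0.44 in the null strain and -7.48 in the reference strain, and no activator passed between strains at 0 min.

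Before the pulse, on ethanol alone, the strains were not shown to differ in any of the 9 activators. By limma 0 of 9 passed, where 1.28% of all genes did. An unadjusted limma p under 0.05 was found for 3 of the 9, namely SIP4, RDS2 and HAP3, and for 859 of the 5449 genes. SIP4 had the largest value, 0.89 in the null against the reference strain (95% interval 0.13 to 1.65, limma adjusted p = 0.276). HAP3 was at -0.59 (95% interval -1.12 to -0.05), RDS2 at -0.41 (95% interval -0.67 to -0.15) and HAP4 at -0.48 (95% interval -1.19 to 0.23). CAT8 at -0.083 had a 95% interval of -0.43 to 0.26, and that of ADR1 ran from -1.19 to 1.32, so a difference of 1 log2 unit in ADR1 could not have been told apart from none.

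At 20 min the strains differed in 7 of 9 activators, 6 higher and 1 lower in the null strain. Over all genes 36.5% were called higher and 38.8% lower there (40.7% and 35.1% as deposited). CAT8 was higher by 7.85 (SE 0.14, limma adjusted p = 4.02e-06), ADR1 by 5.32 (SE 0.50, limma adjusted p = 0.000245) and SIP4 by 2.60 (SE 0.30, limma adjusted p = 0.000587). HAP5 was higher by 0.91, HAP2 by 0.79 and HAP1 by 0.29, with limma adjusted p of 0.0269, 0.0102 and 0.0369. HAP3 was lower by 1.24 (SE 0.21, limma adjusted p = 0.00297), a 2.36-fold difference that passed under both other scalings and in all 8 fits that left out 1 array. HAP4 at -0.20 (95% interval -0.91 to 0.51) and RDS2 at 0.039 (95% interval -0.22 to 0.30) did not pass. The call of HAP1 did not hold as deposited (adjusted p = 0.075) or with centred arrays (adjusted p = 0.246), and it passed in 2 of 8 fits that left out 1 array, those without null 0 min replicate 1 or 3. The call of HAP2 was lost without reference 20 min replicate 3 or null 20 min replicate 1 (adjusted p up to 0.0544), and that of HAP5 without any 1 of the 4 arrays at 20 min (adjusted p up to 0.115). The comparisons at 20 min and over time share their 20 min arrays.

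With all 12 arrays as labelled and equally weighted, limma called 0 of the 9 activators in any of the 5 comparisons, beside 0% of all genes over time in either strain and for the difference between responses, 0.459% at 0 min and 0.642% at 20 min. Without adjustment 21 genes of the whole array in the null strain and 16 in the reference strain had p under 0.05 over time. CAT8 was then at 0.12 in the null strain and -2.79 in the reference strain (SE 2.21 each). A fit of the same 12 arrays that weights each by its estimated quality gave the arrays numbered 2 weights of 0.0548 to 0.370 and the others 1.04 to 6.02. It called 4 activators in the null strain (3 higher and 1 lower), 6 in the reference strain (all lower), 6 between the responses, 0 at 0 min and 6 at 20 min, beside 38.2%, 77.4%, 74.2%, 2.53% and 83.3% of all genes. CAT8 was at 0.27 in the null strain and fell by 7.35 in the reference strain (limma adjusted p = 0.659 and 5.01e-06). In this fit HAP5 passed between the responses (0.87, adjusted p = 0.0128), and HAP1 did not (0.35, adjusted p = 0.123). Within replicate 2 the difference between times had the other sign than in replicates 1 and 3 for CAT8, RDS2, HAP1, HAP2, HAP4 and HAP5 in both strains. The same held for SIP4 and ADR1 in the reference strain and for HAP3 in the null strain. For SIP4 and ADR1 in the null strain and HAP3 in the reference strain, replicates 1 and 3 themselves differed in sign. On the arrays numbered 2 CAT8 had 10.91 at 20 min against 11.44 at 0 min in the null strain, and 11.09 against 4.48 in the reference strain. ADR1 had 12.02 against 12.41 in the null strain and 12.46 against 5.98 in the reference strain. SIP4 had 11.86 against 12.99 in the null strain and 11.60 against 9.35 in the reference strain. RDS2, HAP1 and HAP2, which were called higher at 20 min in the null strain on the 8 arrays, were lower there within replicate 2, at -0.22, -1.10 and -0.67.

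**Figure D3:**
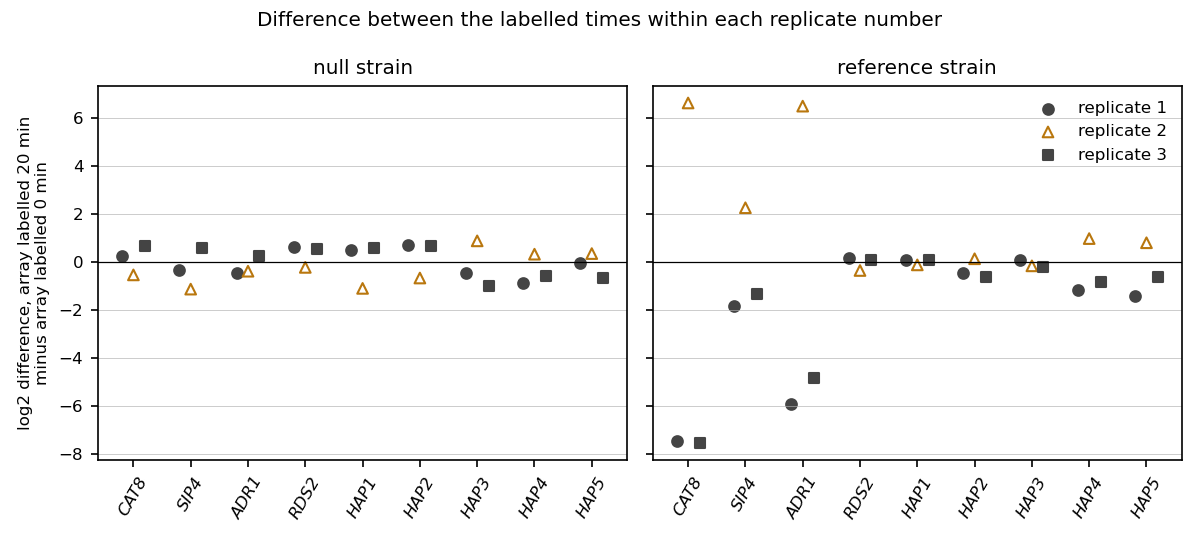
Log2 difference between the array labelled 20 min and the array labelled 0 min of the same replicate number, for the 9 activators in the null strain (left) and the reference strain (right). In the reference strain CAT8 is at -7.46 in replicate 1, 6.61 in replicate 2 and -7.51 in replicate 3, so for CAT8 replicate 2 runs the other way under its labels. Not every gene does so: in the null strain replicate 2 has the sign of replicate 1 for SIP4 and ADR1. In the reference strain it has the sign of replicate 3 for HAP3.

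Genes that these activators are known to act on were counted from lists written from general knowledge of yeast. The lists were chosen with earlier results of these data known, so their counts are description and not independent support. The shares over all genes beside each target list were 12.9% called higher and 14.7% lower in the null strain. In the reference strain they were 39.3% higher and 33% lower. Of 13 targets of Cat8 and Sip4, 0 rose, 1 fell and 12 did not pass in the null strain (median -0.061), and all 13 fell in the reference strain (median -4.72). SFC1, the mitochondrial succinate-fumarate carrier, was at -0.16 in the null strain and fell by 6.07 in the reference strain (SE 0.27, limma adjusted p = 2.70e-05). YAT1, a carnitine acetyltransferase, had the smallest reference change of the list, -3.33. CRC1, the mitochondrial carnitine carrier, was the 1 target that fell in the null strain, by 0.78 (SE 0.11, limma adjusted p = 0.00805), and it did not pass with centred arrays (adjusted p = 0.0563). All 13 targets passed the test of the difference between the responses, with the null response above the reference response, where 32.4% of all genes did.

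Of 12 Adr1 targets, 2 rose, 0 fell and 10 did not pass in the null strain (median 0.18), and all 12 fell in the reference strain (median -4.74). POX1, the peroxisomal acyl-CoA oxidase, was at 0.75 in the null strain (limma adjusted p = 0.126) and fell by 6.70 in the reference strain (SE 0.31, limma adjusted p = 2.94e-05). PXA1, which carries fatty acids into peroxisomes together with Pxa2, rose by 0.88 in the null strain (SE 0.21, limma adjusted p = 0.0317), and CTA1, the peroxisomal catalase, by 0.59 (limma adjusted p = 0.0474). Neither passed in the values as deposited (adjusted p = 0.0554 and 0.111). ALD4, the mitochondrial aldehyde dehydrogenase, had the smallest reference change, -2.83. ACS1, an acetyl-CoA synthetase, stands on both this list and that of Cat8 and Sip4.

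Most of the 19 targets of the CCAAT-binding complex fell in the reference strain. Among them 1 rose, 0 fell and 18 did not pass in the null strain (median 0.079), and in the reference strain 1 rose, 17 fell and 1 did not pass (median -2.70). SDH3, a subunit of succinate dehydrogenase, was at 0.11 in the null strain and fell by 4.25 in the reference strain (SE 0.15, limma adjusted p = 1.60e-05). QCR8, a subunit of the cytochrome bc1 complex, was the 1 gene that rose in the null strain, by 0.80 (limma adjusted p = 0.0078), and at -0.16 the 1 gene that did not pass in the reference strain. Its calls depended on the scaling: as deposited it was at 0.27 in the null strain and -1.62 in the reference strain (adjusted p = 0.213 and 4.84e-05). HEM1, the first enzyme of heme synthesis, was the 1 gene that rose in the reference strain, by 1.09 (limma adjusted p = 0.0012).

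Of 10 Hap1 targets, 3 rose, 0 fell and 7 did not pass in the null strain (median 0.39), and 1 rose, 8 fell and 1 did not pass in the reference strain (median -1.48). CYB2, the lactate dehydrogenase of mitochondria, rose by 1.37 in the null strain (limma adjusted p = 0.0184) and fell by 5.94 in the reference strain (limma adjusted p = 2.75e-05). CYC7, the minor isoform of cytochrome c, was at 1.39 in the null strain and 1.19 in the reference strain, and neither value passed (limma adjusted p = 0.0693 and 0.0539). Its reference value was -0.77 as deposited and -0.28 with centred arrays, the other direction. ROX1, the repressor of hypoxic genes, rose in both strains, by 1.04 in the null strain and 1.22 in the reference strain (limma adjusted p = 0.0388 and 0.00784). ERG11, an enzyme of ergosterol synthesis, had the smallest reference change, -0.41 (limma adjusted p = 0.0116), which was 0.21 and did not pass with centred arrays. CYC1, CYT1 and QCR2 stand on both this list and that of the CCAAT-binding complex.

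**Figure D4:**
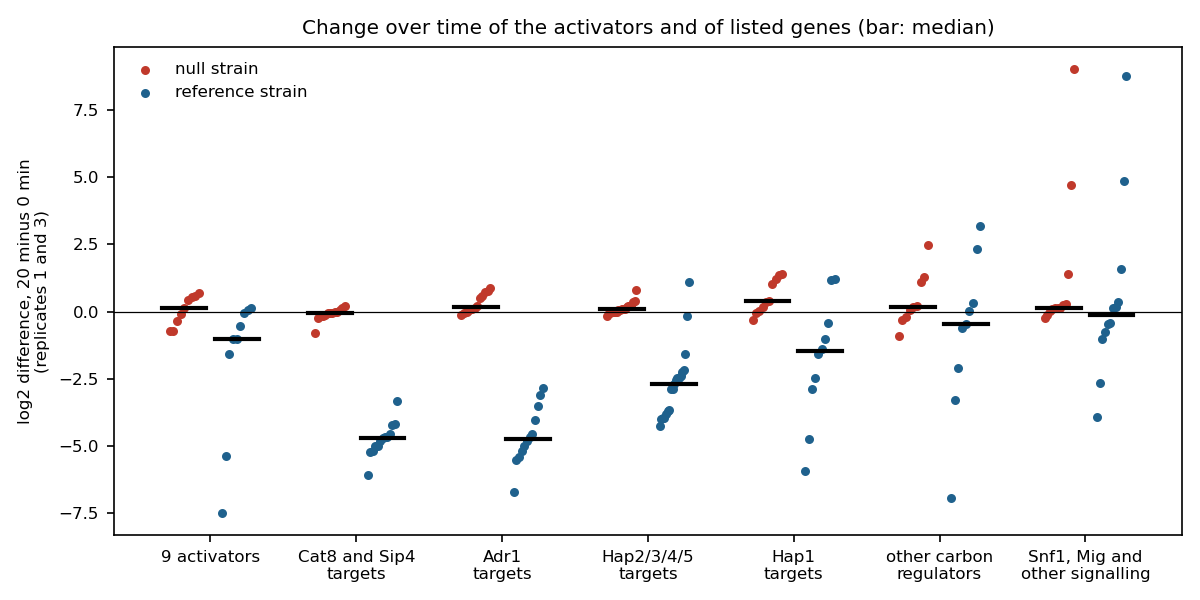
Log2 change from 0 to 20 min over replicates 1 and 3 for the 9 activators and 6 gene lists, with the null strain left of the reference strain in each pair, 1 point per gene and a bar at the median. The medians of the targets of Cat8 and Sip4 are -0.061 in the null strain and -4.72 in the reference strain.

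Genes of the signalling that acts on the activators were counted likewise. Of 12 genes, 3 rose, 0 fell and 9 did not pass in the null strain, beside 12.9% called higher and 14.7% lower over all genes. In the reference strain 4 rose, 5 fell and 3 did not pass, shares near those over all genes there (39.3% higher and 33% lower). As deposited 3 rose and 7 fell in the reference strain, and with centred arrays 5 rose and 4 fell. The 3 that rose in the null strain were the repressor genes MIG1, MIG2 and MIG3, and all 3 also rose in the reference strain. MIG1 rose by 1.40 in the null strain and 1.57 in the reference strain (SE 0.12 each, limma adjusted p = 0.00244 and 0.000132), and the responses differed by -0.17 (limma adjusted p = 0.4). MIG1 was also the 1 gene of the list that was higher in the null strain at 0 min, by 1.16 (limma adjusted p = 0.017), and it did not pass as deposited (0.81, adjusted p = 0.0656). MIG2 rose by 9.02 in the null strain and 8.76 in the reference strain, and MIG3 by 4.71 and 4.85 in the same order of strains. The sizes for MIG2 are not well determined, because at least 1 array lay within 0.18 log2 units of its lowest value as deposited. GAL83, a beta subunit of the Snf1 kinase, had the smallest reference change, 0.14, which did not pass and was -0.64 as deposited (adjusted p = 0.029). SIP2, another beta subunit, was at 0.13 in the null strain and fell by 3.92 in the reference strain (limma adjusted p = 0.000649). BMH1 and BMH2, whose proteins bind phosphorylated Adr1 and keep it inactive, fell in the reference strain by 1.02 and 2.65 (limma adjusted p = 0.00156 and 3.70e-05).

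For the 3 activators whose values spanned at least 2 log2 units on the 8 arrays, the genes with the most similar pattern were named by Euclidean distance between gene-centred values. For CAT8 these were GPH1, the glycogen phosphorylase, then YPI1 and FAT3, at distances of 0.578, 0.608 and 0.652 and with a Pearson r of 0.998 over 8 arrays in the first case. SIP4 was most like KIP1, YDC1 and CPS1 (distances 0.697, 0.726 and 0.753). ADR1 was most like ATG13, GPT2 and FBP1, the gluconeogenic fructose-1,6-bisphosphatase (distances 0.95, 1.03 and 1.03). The 8 points share 4 groups, so these likenesses mainly describe the reference arrays at 20 min against the rest.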

How the data were processed

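Deposited values are log2 intensities, 1 per array for each of 10928 probe sets of an Affymetrix yeast array. The authors' summarisation software was not given in the sources used here. Per the labels' protocols, total RNA was extracted with an RNeasy kit with DNase on the column, and biotinylated cRNA was prepared from it. Probe sets were matched by gene identifier to a 2016 probe annotation and the RefSeq gene table of S. cerevisiae. In all 5498 matched, and keeping for each gene its probe set with the highest mean left 5449 genes. Array medians over these genes ran from 10.34 to 10.90, so the 12 arrays were quantile-normalized. A model with 4 group means was fitted to the 8 arrays of replicates 1 and 3 with limma 3.58.1 in R 4.3.3 (4 residual degrees of freedom), with empirical Bayes moderation, two-sided tests and Benjamini-Hochberg adjustment over all genes. The fit of all 12 arrays as labelled was an alternative. The number of arrays limits the precision.

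All activators were named, and each list had as examples the genes of largest and smallest absolute change in the reference strain and of largest absolute change in the null strain. MIG1, MIG3, HEM1, CTA1, ROX1, SIP2, BMH1 and BMH2 were named after their values were seen, as were OAF1, GSM1, PIP2, ERT1 and RTG1. The members, lists and the use of replicates 1 and 3 were chosen with earlier results of these data known. The series design states biological triplicates. Same-numbered arrays of 0 and 20 min had deviations from their group means that correlated at -0.294 in the null strain and 0.0811 in the reference strain (8 arrays). These values rest only on the difference between replicates 1 and 3 of each group, so they cannot show whether the numbers pair the samples. The numbers were not used as pairs in the main fit. The code was also run on simulated data in which most genes did not change. In the reference response 72.3% of all genes were called, so that run cannot tell how the scaling acts on these arrays. Plots used Python 3.11.15 and matplotlib 3.10.9.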

Additional observations from a re-analysis of the deposited data

Results flagged for a closer look

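The response to the pulse differed between the strains, by the test of the difference itself, for 6 of the 9 activators, where 66.3% of all genes passed in either direction, a share close to that of the activators. The null response exceeded the reference response by 7.93 log2 units for CAT8, 5.26 for ADR1, 1.71 for SIP4 and 1.22 for HAP2. The differences for HAP1, 0.45, and for RDS2, 0.45, were the smallest that passed, and both are smaller than the 0.558 log2 units between the lowest and the highest array median as deposited. HAP2 is the 1 activator called in opposite directions in the strains, and both calls were close to the threshold. Its null rise did not pass as deposited (limma adjusted p = 0.124). Its reference fall did not pass with centred arrays (limma adjusted p = 0.0906).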

How the results depend on the processing

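With 2 arrays a group in the fit, small changes of the activators rested on single arrays and on the scaling. For most settings below, the share over all genes is not given beside the count. Those counts show only how the activator calls moved with the processing. With all 12 arrays as labelled and equally weighted, with or without the replicate block, 0 of the 9 activators passed in the null strain, in the reference strain, between the responses and at 20 min. With the 12 arrays weighted by their estimated quality, 4, 6, 6 and 6 passed in the same order, beside 38.2%, 77.4%, 74.2% and 83.3% of all genes. At an adjusted p under 0.01, 0 activators passed in the null strain, 3 in the reference strain, 3 between the responses and 4 at 20 min. Asking also for at least 1 log2 unit left 0 in the null strain and 4 at 20 min. As deposited, 1 passed in the null strain (HAP3, lower), against 3 after quantile normalization, beside 26.3% and 27.5% of all genes. Leaving out 1 of the 8 arrays in turn gave 0 to 3 in the null strain, 3 to 6 in the reference strain, 4 to 5 between the responses, 4 to 7 at 20 min and 0 at 0 min. The replicate block on the 8 arrays gave 4, 6, 6, 6 and 0 in the same order, and whether the numbers pair the samples was not settled. A block with crossed numbers in the null strain, chosen after seeing the data, gave 2, 5, 4, 6 and 0.

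Directions that turned were mostly those of values near 0, and the cause was not tested. With all 12 arrays, without and with the block, the values that turned were 2.26 for CAT8 at 0 min, -0.30 for SIP4 and -0.012 for HAP1 in the null strain, -0.036 for RDS2 in the reference strain, -0.023 for HAP1 and -0.034 for HAP4 between the responses, 0.18 for HAP1 at 0 min and -0.00709 for RDS2 at 20 min. As deposited, RDS2 was at -0.00839 in the null strain and -0.72 in the reference strain, and HAP1 at -0.051 in the reference strain. With centred arrays ADR1 was at 0.14 in the null strain and RDS2 at -0.22 in the reference strain. With array weights CAT8 was at 0.16 at 0 min and SIP4 at -0.22 in the null strain. Leaving out 1 array in turn also turned directions. In the null strain ADR1 ran over -0.44 to 0.24 and SIP4 over -0.23 to 0.47. In the reference strain HAP3 ran over -0.26 to 0.14. At 0 min ADR1 ran over -0.28 to 0.41 (-0.13 without reference 0 min replicate 1), CAT8 over -0.27 to 0.0996 and HAP5 over -0.12 to 0.64. Between the responses HAP4 ran over -0.081 to 0.63, and at 20 min RDS2 ran over -0.066 to 0.14. Over all values of single activators and alternatives, 717 kept direction and side of the threshold, 135 no longer passed, 15 newly passed and 33 turned.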

Other observations

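Of 9 other regulators of carbon, fatty acid and retrograde genes, 2 rose, 1 fell and 6 did not pass in the null strain, and 2 rose, 4 fell and 3 did not pass in the reference strain. Over all genes 12.9% rose and 14.7% fell in the null strain, and 39.3% rose and 33% fell in the reference strain. As deposited 1 of the 9 rose and 1 fell in the null strain, and 1 rose and 5 fell in the reference strain. USV1, a zinc-finger factor linked to growth on non-fermentable carbon, was called in opposite directions. It rose by 2.48 in the null strain (SE 0.34, limma adjusted p = 0.00714) and fell by 6.94 in the reference strain (limma adjusted p = 3.55e-05), where it came within 1.19 log2 units of the lowest value as deposited. ERT1, a zinc-cluster regulator of gluconeogenic genes and of ethanol use, changed in both strains. It fell by 0.90 in the null strain and rose by 3.17 in the reference strain (limma adjusted p = 0.0434 and 0.000139), and the responses differed by -4.06 (limma adjusted p = 0.000269).

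GSM1, a zinc-cluster factor of energy metabolism, was at 0.22 in the null strain and fell by 3.30 in the reference strain (limma adjusted p = 7.26e-05). PIP2 and OAF1 encode the partners that activate fatty acid oxidation genes. PIP2 was at 1.12 in the null strain (limma adjusted p = 0.0525) and fell by 2.10 in the reference strain (limma adjusted p = 0.00196), while OAF1 at -0.33 in the null strain and -0.45 in the reference strain did not pass. RTG1, a factor of the signal from mitochondria to the nucleus, rose by 1.30 in the null strain and 2.34 in the reference strain (limma adjusted p = 0.0461 and 0.00193), and neither passed as deposited (0.16 and 0.71, adjusted p = 0.818 and 0.14). RTG2, which acts in the same signal, had the smallest reference change of the list, 0.0069, which was -0.44 as deposited.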
